A study of Triticum polonicum with 10 samples.

Results

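Cadmium-treated roots that received an iron salt were compared with cadmium-treated roots that received none. The comparison covers 5 of the 10 libraries of an RNA sequencing series on roots of Triticum polonicum (dwarf Polish wheat), which is tetraploid and carries the A and B subgenomes. The libraries were chosen by their title codes: A50Cd and A200Cd (50 and 200 µM FeCl3), B50Cd and B200Cd (50 and 200 µM Fe2(SO4)3), each with 80 µM CdCl2, and ACd (80 µM CdCl2 with no iron salt, titled Acd in the labels). Seedlings of 4 weeks were treated for 1 week. ACd is 1 library, so the arm without iron has no spread of its own. The design text speaks of 3 biological replicates for each treatment. Only 1 library per treatment is at hand, and nothing says which plants went into it. The 4 iron libraries differ from each other in salt and dose, so they are not replicates of 1 treatment.

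The labels of the sulfate libraries contradict each other. By its treatment text B50Cd received 50 µM Fe2(SO4)3 and no cadmium, and B200Cd received 50 µM Fe2(SO4)3 with 80 µM CdCl2, while a library coded B50CK is described with 200 µM Fe2(SO4)3 and 80 µM CdCl2. The labels of ACd, A50Cd and A200Cd are free of such contradictions. Counts are therefore given below by the codes. The text reading puts B50CK in place of B50Cd. Its main values stand beside the tests, the counts of 2-fold genes and the descriptions by length, ID group, neighbouring ID, salt pattern and overlap. Medians, runs of neighbouring IDs, counts at other limits and the smallest shares of chromosomes are by the codes alone.

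Grasses take up iron by releasing phytosiderophores, small chelators of the mugineic acid family that bind ferric iron in the soil, and by importing the complex through yellow stripe transporters of the root surface. Cadmium has no known nutritional role in wheat and can enter root cells through transporters of iron, zinc and manganese. Genes of these routes could not be looked up, because the files pair no ID with a name or a description. The IDs give a chromosome, a subgenome letter and an order along the chromosome, with the suffix LC for low-confidence genes. IDs of the form Novel01110 carry no position. At most 2 IDs per direction are named for each comparison, besides those singled out among neighbouring genes.

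Total counts were 19320820 in ACd and 14272778 to 17408726 in the iron libraries. Of 274924 IDs, 98226 had a count in at least 1 of the 5 libraries, and 24999 had a mean of at least 5 CPM (counts scaled to the library total). ACd stood farther from each iron library than any 2 iron libraries stood from each other. Over the 24999 genes, log2 ratios between ACd and an iron library had a standard deviation (SD) of 0.904 for A50Cd, 0.8 for A200Cd, 0.801 for B50Cd and 0.898 for B200Cd. Between iron libraries it ranged from 0.48 (B50Cd with B200Cd) and 0.482 (A50Cd with A200Cd), the same salt at different coded doses, to 0.678 (A50Cd with B50Cd). Libraries of 1 salt were thus closer to each other than to either library of the other salt. With 1 library on 1 side, a deviation of ACd alone and an effect of iron cannot be told apart, in this and in every result against ACd below.

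**Figure D1:**
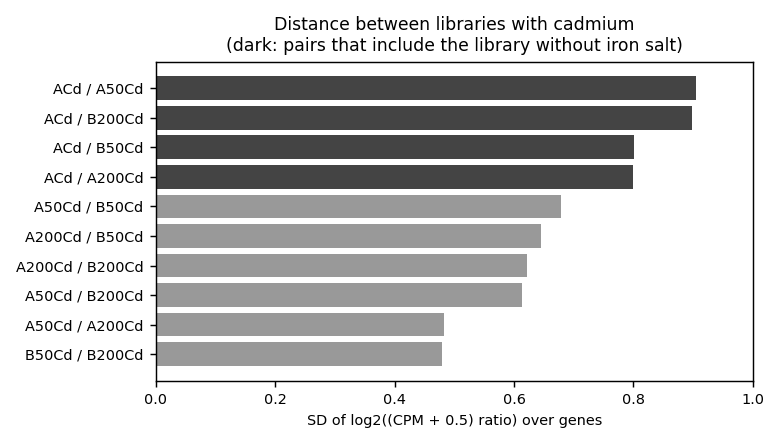
SD of the log2 ratio (CPM + 0.5) over 24999 genes for each of the 10 pairs of libraries, with dark bars for pairs that include ACd. The 4 dark bars lie between 0.8 and 0.904, and the grey bars between iron libraries lie between 0.48 and 0.678.

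Named first are the 2 genes per direction with the smallest edgeR p and all 4 iron libraries on the same side of ACd. This choice favours genes whose iron libraries lie close together and far from ACd. Both traits thus follow from the choice. The levels are given as a description. TraesCS7A01G539300 was at 2.69 CPM in ACd and at 33.4, 27.7, 35.7 and 34.6 CPM in A50Cd, A200Cd, B50Cd and B200Cd. The 4 iron libraries spanned a narrow range, far above ACd. The log2 fold was 3.85 ± 0.37 (SE, 4 libraries against 1), with adjusted p = 0.103 in edgeR's quasi-likelihood test. TraesCS2B01G034000 was at 1.97 CPM in ACd and at 26.0, 36.6, 22.4 and 34.7 CPM with iron in the same order (log2 fold 4.16 ± 0.45, edgeR adjusted p = 0.103). Both genes were also found in roots without cadmium: the control without iron or cadmium (ACK) had 23.2 and 14.4 CPM. Their levels in ACK thus lay between that of ACd and those of the iron libraries.

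On the lower side, TraesCS1B01G394700, an ID of 294 bp, was at 27.5 CPM in ACd and at 0.981, 1.15, 1.59 and 0.669 CPM in A50Cd, A200Cd, B50Cd and B200Cd. Its log2 fold was -4.39 ± 0.37 (edgeR adjusted p = 0.0872, the smallest of the comparison). In ACK it was at 0.587 CPM, so among these 6 libraries it was high in ACd alone. TraesCS4A01G104300 was at 24.5 CPM in ACd and at 4.2, 3.91, 3.76 and 3.75 CPM with iron (log2 fold -2.4 ± 0.27, edgeR adjusted p = 0.103). Unlike the preceding gene it was also high in ACK, at 22.1 CPM, and 2.13 to 9.64 CPM were found in the libraries coded as iron without cadmium.

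Not 1 of 59411 genes passed the threshold of adjusted p under 0.05 over the 4 libraries against 1 (edgeR, 0.0% called). Before adjustment, p was under 0.05 for 11804 genes (19.9% of those tested), with 6543 higher (11.0%) and 5261 lower (8.86%) in the iron libraries. By the treatment text edgeR also called 0 genes, with 6648 under 0.05 before adjustment. DESeq2 called 3592 genes (2793 higher and 799 lower), and limma on the deposited FPKM called 0, with 11540 under 0.05 before adjustment. In this fit the differences of salt and dose among the iron libraries count as spread, and the lone ACd is assumed to vary like them. With salt and dose as terms of the model, the log2 folds of the 4 genes named above were 3.84, 4.14, -4.41 and -2.41, in the order named. That model fits 4 coefficients to 5 libraries, so its spread rests on fewer residual degrees of freedom than that of the main fit. Its dose term follows the codes. The 4 genes had been chosen on these same libraries, so these folds are no further support.

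**Figure D2:**
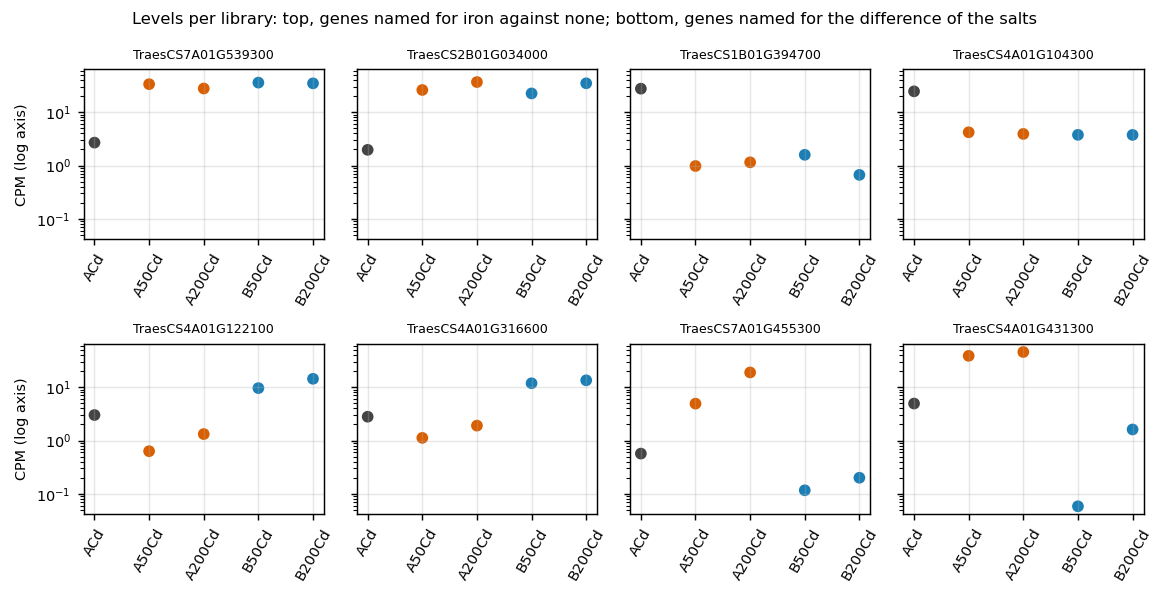
Level in CPM (log axis) of 8 genes in the 5 libraries, with ACd in grey, FeCl3 libraries in orange and Fe2(SO4)3 libraries in blue. In the upper panels the 4 iron libraries lie together and apart from ACd, which the choice of these genes by the smallest edgeR p favours. In the lower panels, with genes chosen for salts that do not overlap, the blue and orange points lie on opposite sides of ACd.

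Counts of genes 2-fold apart from ACd give the breadth of the difference without a test. In all 4 iron libraries, a level 2-fold or more above that of ACd was found for 940 of 24999 genes (3.76%), and one 2-fold or more below it for 994 (3.98%). A 4-fold limit left 132 higher (0.528%) and 39 lower genes (0.156%). The split at 2-fold depended on the scaling. Log2 ratios to ACd per library total had a median of -0.28, -0.18, -0.11 and -0.09 in A50Cd, A200Cd, B50Cd and B200Cd. Scaling by TMM (a trimmed mean of ratios, as used in the edgeR fits) moved these medians up by 0.15 to 0.36, to between 0.04 and 0.09. With TMM the counts were 1483 higher (5.95%) and 389 lower (1.56%) of 24922 genes, so 79.2% of the genes 2-fold apart were higher, against 48.6% by library total. All 940 and all 389 of the shorter lists were also in the longer ones. At 4-fold, TMM gave 210 higher (0.843%) and 20 lower genes (0.0803%). The mean of 5 CPM is taken over 4 iron libraries and 1 without iron, so a gene with a high level in ACd alone passes less easily than one with the same level in the iron libraries. With 5 CPM asked of the higher of ACd and the mean of the iron libraries, 28445 genes entered, 1015 higher and 1778 lower at 2-fold and 152 and 114 at 4-fold. With TMM that filter gave 1597 and 777 at 2-fold, and 244 and 54 at 4-fold. With a mean of 1 CPM the 2-fold counts by library total were 1999 and 2673. By the treatment text, with the mean of 5 CPM, they were 1015 higher (4.0%) and 399 lower (1.57%) of 25406 genes.

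The genes 2-fold apart carried a modest part of the counts. Those higher in all 4 iron libraries took 1.51% of the counts in ACd and 6.14%, 5.21%, 4.61% and 5.82% in A50Cd, A200Cd, B50Cd and B200Cd. The lower genes took 7.61% in ACd and 2.58% to 2.95% with iron. These shares follow from how the lists were chosen and carry no test. Over all genes, the summed gains from ACd to an iron library came to 25.3% of the counts for A50Cd, 22.4% for A200Cd, 21.4% for B50Cd and 23.2% for B200Cd.

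Many genes were 2-fold apart in some of the iron libraries only. By library total, 1401, 1245 and 843 genes were higher in exactly 1, 2 and 3 iron libraries, and 2497, 1327 and 844 were lower. With TMM the larger side turned, with 1852, 1626 and 1172 higher and 1454, 845 and 514 lower. Genes higher in 1 library and lower in another numbered 151 by library total and 172 with TMM. Within 2-fold of ACd in all 4 were 14757 by library total and 15415 with TMM. By library total, single libraries had 2252 (B50Cd) to 2979 (B200Cd) genes at least 2-fold higher and 2412 (A200Cd) to 3866 (A50Cd) lower. Both FeCl3 libraries and neither Fe2(SO4)3 library were 2-fold higher for 461 genes and 2-fold lower for 417. The reverse, both Fe2(SO4)3 and neither FeCl3 library, held for 450 and 361 genes. With TMM the counts were 685 and 143 for FeCl3 alone, and 470 and 438 for Fe2(SO4)3 alone. Read by the text, they were 230 and 293, and 203 and 189.

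**Figure D3:**
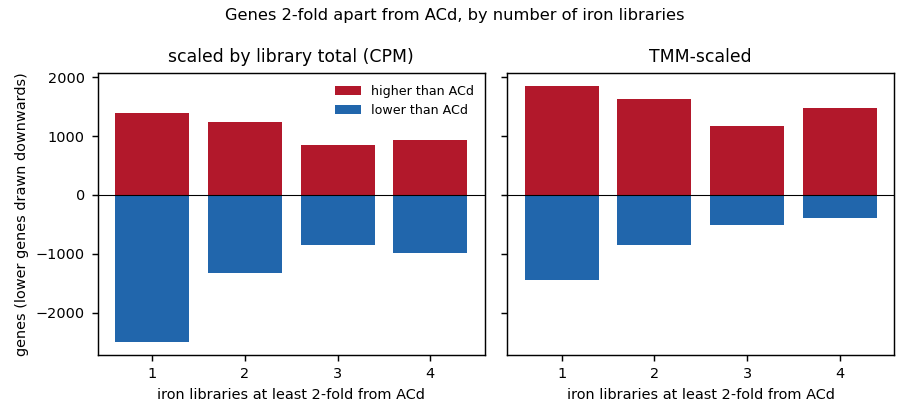
Number of genes at least 2-fold from ACd in exactly 1, 2, 3 or 4 iron libraries, higher genes upwards and lower genes downwards, by library total (left) and TMM (right). The 4-library bars stand at 940 and 994 genes on the left and at 1483 and 389 on the right.

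Genes on the 2 lists differed in length. By library total, the lower list had a median length of 778 bp and the higher list 1296 bp, against 1241 bp for all 24999 genes. Of genes under 500 bp, 10.2% were lower in all 4 iron libraries, falling to 5.54% from 500 to 1000 bp, 2.57% from 1000 to 2000 bp and 1.67% from 2000 to 4000 bp, with 1.85% from 4000 bp. With TMM the shares in the same classes were 4.38%, 2.33%, 0.883%, 0.52% and 0.775%. In the text reading they were 3.61%, 2.38%, 1.04%, 0.602% and 0.461%. The share of higher genes was 3.05% under 500 bp, 3.38% from 500 to 1000 bp, 4.24% from 1000 to 2000 bp, 3.86% from 2000 to 4000 bp and 1.85% from 4000 bp. In the same classes it was 4.53%, 5.18%, 6.68%, 6.45% and 3.88% with TMM. The text reading gave 3.57%, 3.86%, 4.35%, 3.86% and 2.0%. Genes under 500 bp took 14.7% of all counts in ACd, more than in any other library of the series, and 13.1%, 13.4%, 12.3% and 12.4% in A50Cd, A200Cd, B50Cd and B200Cd. Whether differences in RNA quality or in library preparation bear on the short genes was not tested.

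**Figure D4:**
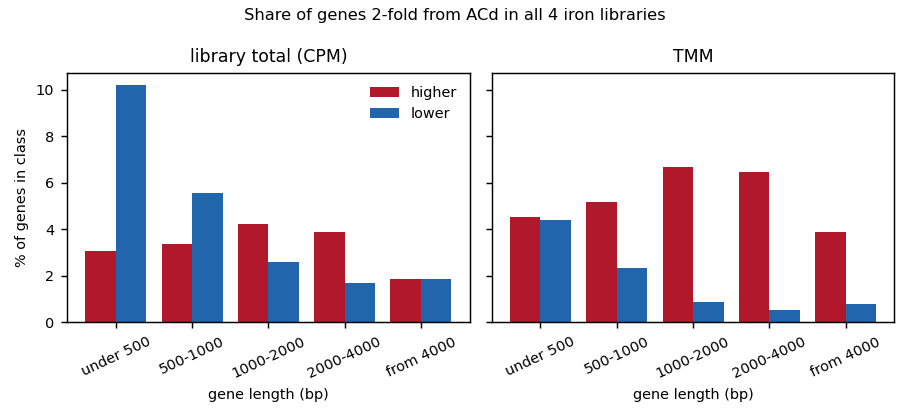
Percent of the genes in each class of length that were at least 2-fold higher (red) or lower (blue) than ACd in all 4 iron libraries, by library total (left) and TMM (right). The blue bars are tallest for genes under 500 bp, at 10.2% and 4.38%.

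The subgenomes were compared next, as descriptions without a test. IDs of subgenome A had 393 higher and 466 lower genes of 11370 (3.46% and 4.1%), and those of subgenome B 478 and 450 of 11788 (4.05% and 3.82%). With TMM the counts were 632 and 176 for A (5.57% and 1.55%) and 743 and 180 for B (6.32% and 1.53%). The text reading gave 441 and 171 for A, and 497 and 178 for B. A tetraploid wheat has no D subgenome, yet some reads were counted to D IDs. These IDs had a larger share of higher genes than A or B, 30 of 427 (7.03%, with TMM 11.2%, by the text 7.34%), and 12 were lower (2.81%, with TMM 1.4%, by the text 1.15%). Reads of an A or B gene that match its D copy could be counted there, so D counts are uncertain. The larger share was not particular to D. Of unplaced IDs, 12 of 174 were higher (6.9%, with TMM 9.14%, by the text 6.45%) and 9 lower (5.17%, with TMM 2.29%, by the text 1.61%). Of LC IDs, 105 of 2072 were higher (5.07%, with TMM 7.76%, by the text 4.82%) and 117 lower (5.65%, with TMM 2.23%, by the text 3.57%). The filter of the edgeR fit lets in an ID through 1 library, and 4 of the 5 libraries are iron libraries. IDs of low level thus enter more easily through iron, and whether this bears on the medians of that fit was not tested. Over all genes the median log2 fold was 0.011 with a filter of 1 CPM in 2 libraries and 0.253 with no filter. With the filter of the main fit the median was 0.46 over 3354 D IDs and 0.03 over all 59411 genes. It was 0.01 for A, 0.04 for B, 0.37 for 671 unplaced IDs, 0.15 for 10544 LC IDs and -0.12 for 4697 IDs of the Novel01110 form. Of the latter with a mean from 5 CPM, 27 of 1240 were higher (2.18%) and 57 lower (4.6%), while TMM gave 44 (3.59%) and 23 (1.88%) of 1225, and the treatment text 33 and 42 of 1236. They took 3.2% of the counts in ACd, 2.22% and 2.44% in the FeCl3 libraries and 2.98% and 3.02% in the Fe2(SO4)3 libraries.

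Among the 14 chromosomes of A and B, chromosome 2B had by library total the largest share of higher genes, 103 of 1942 (5.3%, against 3.76% of all genes), and the largest share of lower genes, 98 (5.05%, against 3.98%). With TMM it also had the largest shares, 7.64% higher (5.95% of all) and 2.43% lower (1.56% of all). This order did not hold by the treatment text, where 7B had the largest share of higher genes (4.9%, with 4.49% on 2B) and 2A that of lower genes (2.06%, with 1.92% on 2B). The smallest share of higher genes was on 6A by library total (2.62%) and on 5A by TMM (4.93%). The smallest share of lower genes was 3.22% on 4B by library total and 1.18% on 7A by TMM.

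The ID that followed a gene of either list was on the same list more often than next IDs in general. For 799 higher genes with a following high-confidence ID of sufficient level on the same chromosome, that next ID was also higher in 97 cases (12.1%), against 3.72% of all next IDs. For 812 lower genes the next ID was lower in 46 cases (5.67%, against 3.78%). With TMM the shares were 14.4% against 5.9% for higher genes and 5.06% against 1.48% for lower genes. The text reading gave 14.4% against 3.99%, and 6.81% against 1.28%. Neighbouring copies of 1 gene can share reads, so such counts are uncertain, and whether this bears on the shares was not tested. Among the high-confidence IDs of sufficient level, taken in order, there were 18 runs of 3 or more higher IDs and 8 runs of lower ones. Some runs pass over IDs that were left out between their members.

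The longest run of higher IDs held 5 genes on chromosome 4B with no ID left out between them, TraesCS4B01G377900 to TraesCS4B01G378300, singled out after its values had been seen. TraesCS4B01G378000 was at 25.4 CPM in ACd and at 104, 65.7, 59.8 and 106 CPM in A50Cd, A200Cd, B50Cd and B200Cd. TraesCS4B01G378100 was at 1.09 CPM in ACd and at 9.88, 4.25, 3.99 and 10.7 CPM with iron. In both genes A50Cd and B200Cd were above A200Cd and B50Cd, and so they were in the other 3 genes of the run. The longest run of lower IDs, with 4 genes over a span of 10 IDs on chromosome 2A, went from TraesCS2A01G531400 to TraesCS2A01G532300 and was singled out in the same way. TraesCS2A01G531400 was at 19.4 CPM in ACd, at 3.57 and 4.6 CPM with FeCl3 and at 2.0 and 1.27 CPM with Fe2(SO4)3. TraesCS2A01G532200 was at 29.7 CPM in ACd, at 5.32 and 14.4 CPM with FeCl3 and at 2.17 and 1.27 CPM with Fe2(SO4)3. In all 4 genes of this run the Fe2(SO4)3 libraries were below the FeCl3 libraries.

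Genes found in 1 arm only were few at levels that could be measured well. A count of 0 in ACd with counts in all 4 iron libraries was seen for 2111 of 98226 IDs, of which 104 had a mean of at least 1 CPM in the iron libraries. The reverse was seen for 2980 IDs, of which 6 reached 1 CPM in ACd, the library of greatest depth. Novel01110 had 0 counts in ACd and was at 3.5, 4.14, 4.81 and 9.76 CPM in A50Cd, A200Cd, B50Cd and B200Cd, at least 35.8-fold higher on average than the limit of 3 counts in ACd (0.155 CPM). Novel05315, also at 0 in ACd, had 0.21, 4.37, 5.81 and 7.69 CPM, at least 29.1-fold higher, with A50Cd far below the rest. Novel01602 was at 2.79 CPM in ACd, or 54 counts, and at 0 in all 4 iron libraries, at least 13.3-fold lower by the limit of 3 counts per library. TraesCS2A01G544700 was at 2.59 CPM, or 50 counts, in ACd (at least 12.3-fold lower with iron) and had 0 counts in the 9 other libraries of the series. These bounds leave out the counting error of the arm that holds the counts.

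The effect of iron was then taken for each salt separately, with the spread from the 2 libraries of each salt (2 residual degrees of freedom). The 2 comparisons share ACd. With FeCl3, 2064 of 59411 genes passed (edgeR, 3.47% called), 1640 higher (2.76%) and 424 lower (0.714%). With Fe2(SO4)3, 2854 passed (4.8%), 1630 higher (2.74%) and 1224 lower (2.06%). The 4 genes named for iron as a whole passed in both, with log2 folds of 3.81 and 3.89 (FeCl3 and Fe2(SO4)3) for TraesCS7A01G539300, 4.28 and 4.03 for TraesCS2B01G034000, -4.38 and -4.39 for TraesCS1B01G394700 and -2.29 and -2.52 for TraesCS4A01G104300. Their edgeR adjusted p was 0.0247 with FeCl3 and 0.015 to 0.0172 with Fe2(SO4)3. These genes had been chosen on the same libraries and the same ACd, so their passing for each salt is a description and no further support. The counts changed with the libraries that supply the spread. Read by the treatment text, with B50CK in place of B50Cd, 0 genes passed for either salt in edgeR (5288 and 5445 unadjusted). Without A50Cd 747 genes passed for FeCl3, and without B50Cd or B200Cd 3805 and 5470. For Fe2(SO4)3 the counts were 4794 and 4667 without A50Cd and A200Cd. limma on FPKM called 0 genes for FeCl3 and 1298 for Fe2(SO4)3, 561 higher and 737 lower.

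Among the genes called with FeCl3 that had a mean of at least 5 CPM over ACd, A50Cd and A200Cd, the largest log2 folds upwards were those of TraesCS4B01G299500 and TraesCS5B01G304200, each with 1 count in ACd. Called genes under that mean, Novel01110 among them, had larger fitted folds. TraesCS4B01G299500 was at 0.0518 CPM in ACd, 9.88 and 7.3 CPM in A50Cd and A200Cd, and 10.9 and 2.27 CPM in B50Cd and B200Cd. The ratio of both FeCl3 libraries to ACd was 163 (95% exact counting interval 29.1 to 6480). It was low in ACK as well, with 1 count. TraesCS5B01G304200 was at 0.0518 CPM in ACd and at 10.7 and 5.11 CPM with FeCl3, a ratio of 148 (26.2 to 5850), and at 42.8 CPM in ACK. Both calls were lost without A50Cd, with limma on FPKM and by the treatment text. That on TraesCS5B01G304200 was also lost with the filter of 1 CPM in 2 libraries. Downwards they were those of TraesCS2B01G471600 and TraesCS6B01G383500. TraesCS2B01G471600, an ID of 363 bp, went from 58.9 CPM in ACd to 0.35 and 0.862 CPM with FeCl3 (log2 fold -6.26 ± 0.54, edgeR adjusted p = 0.0247). It was at 5.87 and 2.61 CPM with Fe2(SO4)3. Its call was lost with limma on FPKM and by the treatment text, as was that on TraesCS6B01G383500. TraesCS6B01G383500 was at 34.5 CPM in ACd, at 0 and 1.32 CPM with FeCl3 and at 5.58 and 2.07 CPM with Fe2(SO4)3 (log2 fold with FeCl3 -5.34 ± 0.9, edgeR adjusted p = 0.0296), a call that was lost with DESeq2 (adjusted p = 0.249).

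With Fe2(SO4)3, and a mean of at least 5 CPM over ACd, B50Cd and B200Cd, the largest upward folds among the calls belonged to LC genes that again had 1 count in ACd. Novel01110, under that mean, had a larger fitted fold here too. TraesCS6D01G184700LC is a D ID, so its counts are uncertain. It was at 0.0518 CPM in ACd, 28.5 and 23.7 CPM in B50Cd and B200Cd, and 0.0701 and 5.0 CPM in A50Cd and A200Cd. Its ratio of both sulfate libraries to ACd was 508 (95% exact counting interval 90.9 to 20100), while A50Cd held 1 count like ACd. TraesCS6B01G101300LC was at 4.76 and 11.0 CPM with Fe2(SO4)3 and at 0.42 and 1.61 CPM with FeCl3, with a sulfate ratio of 148 (26.3 to 5870). The call on TraesCS6D01G184700LC (edgeR adjusted p = 0.0374) was lost with the filter of 1 CPM in 2 libraries (adjusted p = 0.0514) and with limma (0.0691), and that on TraesCS6B01G101300LC (edgeR adjusted p = 0.0234) with limma (0.0978). TraesCS1B01G276200 fell from 59.0 CPM in ACd to 0.235 and 0.535 CPM with Fe2(SO4)3 (log2 fold -7.08 ± 0.85, edgeR adjusted p = 0.0172) and was at 2.03 and 11.7 CPM with FeCl3. Novel01652 fell from 63.1 CPM to 0.411 and 0.401 CPM with Fe2(SO4)3 (log2 fold -7.07 ± 0.74, edgeR adjusted p = 0.015) and was at 1.19 and 6.32 CPM with FeCl3. Both were low in ACK, at 0.88 and 1.1 CPM.

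Whether the effect of iron differed between the salts was tested as the difference of the 2 effects, in which ACd drops out. Of 59411 genes 201 passed (edgeR, 0.338% called), 37 with a higher effect of Fe2(SO4)3 (0.0623%) and 164 with a lower one (0.276%). TraesCS4A01G122100 was at 3.0 CPM in ACd, at 0.631 and 1.32 CPM in A50Cd and A200Cd, and at 9.57 and 14.3 CPM in B50Cd and B200Cd. The salts thus lay on opposite sides of ACd, with a log2 difference of 3.47 ± 0.4 (sulfate minus chloride, edgeR adjusted p = 0.0328). TraesCS4A01G316600 showed the same order, at 2.79 CPM in ACd, 1.12 and 1.9 CPM with FeCl3 and 11.8 and 13.4 CPM with Fe2(SO4)3 (difference 2.94 ± 0.33, edgeR adjusted p = 0.0328). In the other direction TraesCS7A01G455300 was at 0.569 CPM in ACd, 4.9 and 18.8 CPM with FeCl3 and 0.117 and 0.201 CPM with Fe2(SO4)3 (difference -6.26 ± 0.76, edgeR adjusted p = 0.0328). TraesCS4A01G431300 was at 4.92 CPM in ACd, 38.5 and 45.4 CPM with FeCl3 and 0.0587 and 1.61 CPM with Fe2(SO4)3 (difference -5.82 ± 0.71, edgeR adjusted p = 0.0328).

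A unit of Fe2(SO4)3 holds more iron than a unit of FeCl3, as the formulas show, and the labels give doses per salt. By the codes the amount of iron rises from A50Cd through B50Cd and A200Cd to B200Cd, so the salts alternate along it. The amount was not a term of this test, and the named genes were chosen for salts that do not overlap, so their split by salt follows from that choice. The call on the salts did not hold under other settings: 0 genes passed in edgeR with a filter of 1 CPM in 2 libraries (7417 unadjusted) or with the treatment text (2141 unadjusted), and 0 with limma on FPKM. DESeq2 called 1391, and edgeR called 1576 without B200Cd, 425 without A50Cd, 303 without B50Cd and 121 without A200Cd.

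Finally, the effect of iron under cadmium was set against that without cadmium, by the codes: A50CK, A200CK, B50CK and B200CK (the same salts and doses without CdCl2) against ACK. The 2 comparisons have no library in common. Over 23230 genes (genes are no independent replicates), the mean log2 ratio of iron to none with cadmium had r = 0.189 and Spearman's rho = 0.221 with that without cadmium. Over the 23991 genes of the text reading they were 0.0819 and 0.155. The ratios were spread more widely without cadmium, with an SD of 1.04 against 0.75. In these genes, 811 were 2-fold higher in all 4 iron libraries with cadmium (3.49%) and 1984 without it (8.54%). The lists shared 139 genes, 17.1% of the former and 7.01% of the latter. The lower lists, 896 (3.86%) and 1014 genes (4.37%), shared 60, which is 6.7% and 5.92% of them. With TMM, the higher lists (1334 and 1667 genes) shared 187 and the lower lists (305 and 1246) shared 38. The shared genes made up 14% of the higher and 12.5% of the lower list with cadmium. Of all genes, 7.19% and 5.37% were on the higher and lower lists without cadmium. By the treatment text the higher lists held 940 and 2205 genes and shared 91, which is 9.68% of the list with cadmium, where 9.19% of all genes were on the list without it. By the codes the same shares were 17.1% and 8.54%. The lower lists of the text reading (302 and 1208 genes) shared 35, or 11.6% of the list with cadmium, beside 5.04% of all genes. By library total 39 genes were higher with cadmium and lower without, 4.81% of the former list (beside 4.37% of all genes) and 3.85% of the latter (beside 3.49%). The reverse was seen for 18, which is 2.01% and 0.907% of the lists (beside 8.54% and 3.86% of all genes). With TMM these counts were 75 and 7, or 5.62% and 2.3% of the lists with cadmium, beside 5.37% and 7.19% of all genes. By the treatment text they were 93 and 22, or 9.89% and 7.28% of the lists with cadmium, beside 5.04% and 9.19% of all genes.

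**Figure D5:**
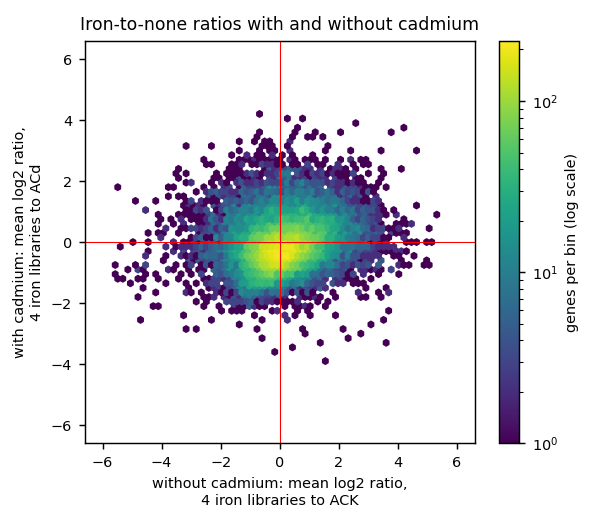
Mean log2 ratio of the 4 iron libraries to the library without iron, with cadmium (vertical axis, against ACd) and without (horizontal axis, against ACK), for 23230 genes, coloured by genes per bin on a log scale. The cloud is wider along the horizontal axis (SD 1.04) than along the vertical one (SD 0.75), and its r is 0.189.

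Of 63776 genes 0 passed the test of a difference between the effects with and without cadmium (edgeR, 0.0% called, smallest adjusted p = 0.0808), and 9472 (14.9%) were under 0.05 before adjustment. The count was 2127 with DESeq2 and 11 with limma on FPKM. With B50CK and B50Cd exchanged, as the treatment text has them, edgeR also called 0 genes (8643 under 0.05 before adjustment). The genes with the smallest p that went opposite ways in every library had that same edgeR adjusted p of 0.0808. TraesCS5A01G534000 was at 2.02 CPM in ACd and 11.4 to 22.4 CPM in the iron libraries with cadmium, but at 54.1 CPM in ACK and 6.55 to 12.1 CPM with iron alone. TraesCS4A01G245900 was at 11.6 CPM in ACd against 29.0 to 35.8 CPM, and at 183 CPM in ACK against 36.6 to 50.4 CPM.

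Opposite to these were TraesCS3B01G578500 and TraesCS5A01G404000. TraesCS3B01G578500 was at 35.5 CPM in ACd and 2.87 to 6.16 CPM with iron and cadmium, but at 9.39 CPM in ACK and 35.2 to 61.0 CPM with iron alone. Its pattern does not hold by the treatment text. There B50Cd (6.16 CPM) is without cadmium and below ACK, and B50CK (35.2 CPM) is with cadmium and close to ACd. The log2 difference of the effects was -5.17 by the codes and -3.58 by the text. TraesCS5A01G404000 was at 66.5 CPM in ACd and 32.2 to 51.4 CPM with iron and cadmium, while ACK held 1 count and the libraries with iron alone 12.2 to 25.5 CPM. The log2 fold of TraesCS5A01G404000 with cadmium was -0.45 (edgeR adjusted p = 0.486). Each of the arms without iron is 1 library in this test, so a deviation of ACd or ACK alone would give the same pattern.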

How the data were processed

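Counts per gene ID were deposited by the authors as whole numbers, with FPKM for the same IDs and libraries. The submitters' processing notes name Bowtie2 2.0.6 and TopHat2 2.0.12. No counting software, genome build, filter, strandedness or rule for multiply matching reads is given in the sources used here. Deposited FPKM values equalled counts scaled by 1 length per gene and the library total (largest difference between libraries 0.0 bp), and gave the lengths used.

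The main test was edgeR 4.0.16 under R 4.3.3 (quasi-likelihood, TMM, filterByExpr defaults), with Benjamini-Hochberg adjustment over all genes tested. Groups were taken from the title codes. The fits had 3 residual degrees of freedom for iron against none, 2 for the salts and 6 for iron with against without cadmium (10 libraries). Standard errors were derived as |log2 fold| over the root of F. Alternatives were DESeq2 1.42.0, limma 3.58.1 on log2(FPKM + 0.5) for genes with a mean FPKM from 0.5, DESeq2 size factors, other filters, the treatment text and leaving out each iron library. The edgeR script was tested on simulated data in which the iron libraries did not differ by salt or dose. That test checks the code and does not cover the spread of the real libraries. CPM were computed per library total, and descriptions used genes from 5 CPM on average.

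In each comparison 2 genes per direction were named: the largest log2 folds among the calls, or, without calls, the smallest p. They needed a mean from 5 CPM over the libraries compared. All iron libraries compared had to lie on the same side of ACd (for 1 salt, its 2 libraries; for the difference of salts, no overlap between the salts; for iron with and without cadmium, opposite sides of ACd and ACK). To these came, with no minimum level, the 2 per direction with 0 counts in 1 arm and the highest level in the other. The members, lists and rules were chosen with earlier results of these data known; the TMM and treatment-text versions of the descriptions, the filter on the higher arm and the block by salt and dose were added after the data had been seen. Gene lists by function were not used, because no annotation pairs the IDs with names. Nothing says that libraries came from separate cultures, so p-values reflect only the spread among the libraries fitted. Intervals and limits cover counting error only.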

Additional observations from a re-analysis of the deposited data

Results flagged for a closer look

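In 34 measures examined over the 4 iron libraries with cadmium (library measures and named genes), 3 held a library far from the other 3. A chance figure of about 1.7 assumes unselected measures of like libraries. The 3 are named genes, chosen on these same libraries, which differ in salt and dose, so that figure is no baseline here. A200Cd was the highest for Novel01652, at 6.32 CPM against 0.401 to 1.19 CPM, and for TraesCS1B01G276200, at 11.7 CPM against 0.235 to 2.03 CPM. B50Cd was the highest for TraesCS3B01G578500, at 6.16 CPM against 2.87 to 3.39 CPM.

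The 4 genes named for the difference of the salts had been chosen for passing that edgeR test and for salts that do not overlap. Their differences restate that choice, and the 2 libraries of each salt differ in coded dose. The difference, sulfate minus chloride, was 3.47 on the log2 scale for TraesCS4A01G122100, 2.94 for TraesCS4A01G316600, -6.26 for TraesCS7A01G455300 and -5.82 for TraesCS4A01G431300. With B50CK in place of B50Cd, as the treatment text has it, they were 2.74, 2.39, -2.36 and -2.76, none past the threshold in edgeR. All 4 calls were also lost with a filter of 1 CPM in 2 libraries and with limma on FPKM.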

How the results depend on the processing

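For iron against none, 0 genes passed in edgeR, and 0 also with DESeq2 size factors, a filter of 1 CPM in 2 libraries, limma, the treatment text, all 10 libraries in 4 groups, or without any 1 iron library. Calls appeared with no filter on low counts (1491), DESeq2 (3592), salt and dose as terms (1843) and the FeCl3 libraries alone (4691). Without a filter edgeR called 7665 genes for FeCl3, 8948 for Fe2(SO4)3, 3930 for the difference of the salts and 621 for the difference with and without cadmium. In the same 4 comparisons DESeq2 called 3706, 3953, 1391 and 2127 genes, and limma 0, 1298, 0 and 11. The filter of 1 CPM gave 1277 for FeCl3, 2160 for Fe2(SO4)3 and 0 for the difference of the salts. By the treatment text each of these counts was 0, although for FeCl3 only libraries that add to the spread were exchanged. Leaving out 1 iron library gave 747 to 5470 genes for FeCl3, 3042 to 4794 for Fe2(SO4)3, 121 to 1576 for the difference of the salts and 0 throughout for the last test; ACd cannot be left out. The counts of 2-fold genes (940 higher, 994 lower) became 132 and 39 at 4-fold, 1999 and 2673 with a mean of 1 CPM, 1483 and 389 with TMM, 399 lower by the text and 1778 lower with 5 CPM in the higher arm; without 1 library they were 982 to 1352 higher and 1151 to 1436 lower. Of 264 values of named genes none reversed, 31 lost and 42 gained a call. The cause was not tested. The labels give no replicate numbers; with a block that pairs the libraries with and without cadmium by coded salt and dose (3 residual degrees of freedom), chosen after seeing the data, edgeR called 0 genes for the last test (8550 under 0.05 before adjustment). Depth allowed levels down to 0.155 to 0.21 CPM in these 5 libraries.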
